A study of Mus musculus with 4 samples.

Results

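The genes described here are the nuclear genes of oxidative phosphorylation in 4 single-cell libraries of mouse prostate. All rows of the count matrix were taken whose symbol starts with Nduf, Uqcr, Atp5 or Cox4 to Cox8, or is Sdha, Sdhb, Sdhc or Sdhd. This gave 92 of 30905 genes, of which 36 were counted as subunits of complex I, 4 of complex II, 8 of complex III, 20 of complex IV and 15 of complex V, and 9 as assembly factors. The assembly factors are Ndufaf1 to Ndufaf8 of complex I and Atp5s, a coupling factor of ATP synthase. They were compared between Cdkn2a-high mesenchymal cells, epithelial-like cells, stromal-like cells and macrophage-like cells. A gene counted as measured in a class with at least 20 UMIs (unique molecular identifiers, which count captured RNA molecules) over the 4 libraries. In each class 89 of the 92 genes were measured, 87 were measured in all 4 classes, and Cox7b2 and Cox8c in none.

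Prostates were taken apart with collagenase and TrypLE and their cells sequenced with the droplet-based 10x 3′ kit. The groups were Trp53-deleted ADT mice of 5.5 months, Trp53-deleted mice of 3.5 months, Trp53-intact ADT mice of 5.5 months and Trp53-intact mice of 4 months, with 1 library each. Trp53-intact mice are not wild type, since all 4 groups share a further engineered part of the genotype. The labels mark the Trp53 deletion with PC, read here as restricted to the prostate epithelium, and do not spell out ADT, read here as androgen deprivation therapy. With 1 library a group, effects of ADT, of age and of genotype cannot be told apart from those of the library, and no test between the groups was possible. How many mice went into each library is not stated in the labels.

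Oxidative phosphorylation is carried out in the inner mitochondrial membrane. Complexes I and II pass electrons to ubiquinone, complex III passes them on to cytochrome c and complex IV to oxygen, and complex V, the ATP synthase, uses the proton gradient so formed. Most subunits are encoded in the nucleus and translated in the cytosol, and a few core subunits are encoded in mitochondrial DNA. Several complex IV subunits exist as isoform pairs, with a form made in most tissues and a second form known from muscle, lung or testis. Healthy prostate secretory epithelium is known for exporting citrate instead of oxidising it.

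The 4 libraries held 58088678 to 148030357 UMIs, and 5338 to 8810 cells per library passed the filters. Epithelial-like cells numbered 183 in the Trp53-deleted ADT library, 467 in the Trp53-deleted library, 582 in the Trp53-intact ADT library and 1379 in the Trp53-intact library. A library held 828 to 1629 stromal-like and 344 to 2341 macrophage-like cells. Trp53 itself had 18.0, 18.8, 93.6 and 60.1 CPM (UMI counts of a class and library, scaled to a common total) in epithelial-like cells of the Trp53-deleted ADT, Trp53-deleted, Trp53-intact ADT and Trp53-intact libraries. It was lower in both Trp53-deleted libraries, as labelled. Between 12 and 31 cell barcodes were shared by each pair of libraries.

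The classes did not hold the same cells in every library. Luminal progenitor-like cells gave 92.9, 87.3, 78.1 and 76.6% of the epithelial-like UMIs in the Trp53-deleted ADT, Trp53-deleted, Trp53-intact ADT and Trp53-intact libraries. Luminal-like cells numbered 661 in the Trp53-intact library and 3 to 58 in the others. In both libraries without ADT most stromal-like UMIs came from a fibroblast-like cluster led by Sult1e1 and C7, with 82.0% in the Trp53-deleted and 71.9% in the Trp53-intact library. In both ADT libraries they came from a cluster led by Mmp3 and Sfrp4, with 64.0% in the Trp53-deleted ADT and 77.2% in the Trp53-intact ADT library. Different clusters likewise held most macrophage-like UMIs with and without ADT. Clusters left unnamed entered no class, although some scored best for a compared class. A cluster scoring best as macrophage held 14, 344, 36 and 595 cells in the Trp53-deleted ADT, Trp53-deleted, Trp53-intact ADT and Trp53-intact libraries. In the same order, a shallow macrophage-scoring cluster held 1822, 8, 34 and 19 cells, and a shallow luminal progenitor-scoring cluster 253, 21, 1317 and 580. The part of this in the comparisons between libraries was not tested.

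The promoters of 3 complex IV subunits are shown. Cox6b1 and Cox6b2 are a pair with different cell type patterns in these data, and Cox6a1 carries both motifs that are marked. NRF1 and the ETS-family factor GABP are regulators known for binding promoters of respiratory chain genes. Capitals mark matches to the NRF1 motif (GCGC and TGCGC with any 1 base between them) or to CCGGAAG (ETS) on either strand, in the 250 bases before the RefSeq start, build GRCm38.p6. All 3 genes lie on the minus strand and are written 5′ to 3′ along the gene, Cox6a1 at chr5:115348959-115349208, Cox6b1 at chr7:30626115-30626364 and Cox6b2 at chr7:4753095-4753344.
Cox6a1: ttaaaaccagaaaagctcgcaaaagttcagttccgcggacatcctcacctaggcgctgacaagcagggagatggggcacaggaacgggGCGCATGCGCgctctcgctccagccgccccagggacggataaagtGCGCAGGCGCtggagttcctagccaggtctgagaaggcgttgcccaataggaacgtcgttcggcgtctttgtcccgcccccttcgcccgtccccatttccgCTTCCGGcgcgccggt
Cox6b1: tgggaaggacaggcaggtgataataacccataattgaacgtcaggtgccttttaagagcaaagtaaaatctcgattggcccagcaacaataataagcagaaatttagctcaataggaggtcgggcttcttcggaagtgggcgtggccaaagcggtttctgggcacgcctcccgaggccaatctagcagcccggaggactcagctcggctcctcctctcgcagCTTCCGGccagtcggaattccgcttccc
Cox6b2: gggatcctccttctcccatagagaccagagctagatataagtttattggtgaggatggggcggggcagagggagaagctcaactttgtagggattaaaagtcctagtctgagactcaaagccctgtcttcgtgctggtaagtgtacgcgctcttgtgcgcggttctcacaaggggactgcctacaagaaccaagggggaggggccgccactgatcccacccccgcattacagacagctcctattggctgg

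The Cox6a1 window held 2 matches to the NRF1 letters and 1 to the ETS letters. The Cox6b1 window held 1 ETS match and no NRF1 match, and the Cox6b2 window held neither. RefSeq promoters were matched by symbol for 74 of the 92 genes. The NRF1 letters were found in 13 of the 74 (17.6%), against 1044 of 27025 genes with a promoter (3.86%), and the ETS letters in 13 of the 74 (17.6%), against 1906 of 27025 (7.05%). Cox6a1, Sdhd and Atp5h held both, and the matches of the 2 motifs did not overlap. The letters ACGTG and CCAAT were also searched and are not marked above. ACGTG was found in 14 of the 74 (18.9%), against 4477 of 27025 (16.6%). CCAAT was found in 33 of the 74 (44.6%), against 9314 of 27025 (34.5%). A match describes the letters and is not evidence of binding.

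Summed over the 92 genes, epithelial-like cells gave more of their UMIs to oxidative phosphorylation than stromal-like or macrophage-like cells. The share was 2.66% of UMIs in the Trp53-deleted ADT, 2.67% in the Trp53-deleted, 2.39% in the Trp53-intact ADT and 2.89% in the Trp53-intact library in epithelial-like cells. In stromal-like cells of the same 4 libraries it was 1.69, 1.34, 1.51 and 1.79%. In macrophage-like cells of these libraries it was 1.86, 1.49, 1.81 and 1.60%. Every epithelial-like value lay above every stromal-like and macrophage-like value, whereas stromal-like and macrophage-like values overlapped. The means were 2.65 ± 0.205% in epithelial-like, 1.58 ± 0.199% in stromal-like and 1.69 ± 0.173% in macrophage-like cells (SD, n = 4 libraries, which differ in genotype and treatment). Of these 12 shares, that of the Trp53-deleted ADT epithelial-like cells had the widest 95% exact binomial interval, from 2.65 to 2.68%, which covers counting error only. Medians over single cells were 2.35, 2.36, 1.95 and 2.79% in epithelial-like cells of the Trp53-deleted ADT, Trp53-deleted, Trp53-intact ADT and Trp53-intact libraries. They were 1.57, 1.25, 1.41 and 1.79% in stromal-like and 1.74, 1.26, 1.64 and 1.43% in macrophage-like cells of these libraries. Single cells overlapped, with a lower quartile of 0.858% in epithelial-like and 1.17% in stromal-like cells of the Trp53-intact ADT library.

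Within the epithelial-like class, luminal-like cells had the highest share, with 4.22% in the Trp53-deleted (58 cells) and 3.60% in the Trp53-intact library (661 cells). These were shallow cells, with a median of 1898 and 1465 UMIs in the 2 libraries. Luminal progenitor-like cells of the same libraries had 31453.5 and 25922 UMIs. The part of depth in the share was not tested. The luminal progenitor-like share was 2.70% in the Trp53-deleted ADT, 2.73% in the Trp53-deleted, 2.43% in the Trp53-intact ADT and 2.91% in the Trp53-intact library. Basal-like cells had 1.95% in the Trp53-deleted, 2.23% in the Trp53-intact ADT and 2.29% in the Trp53-intact library. Within the stromal-like class, smooth muscle/pericyte-like cells had 2.38% in the Trp53-deleted ADT, 1.98% in the Trp53-intact ADT and 2.41% in the Trp53-intact library. Fibroblast-like cells of the same 3 libraries had 1.66, 1.496 and 1.74%. Neutrophil-like cells had 0.767 to 1.11% over the 4 libraries.

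**Figure D1:**
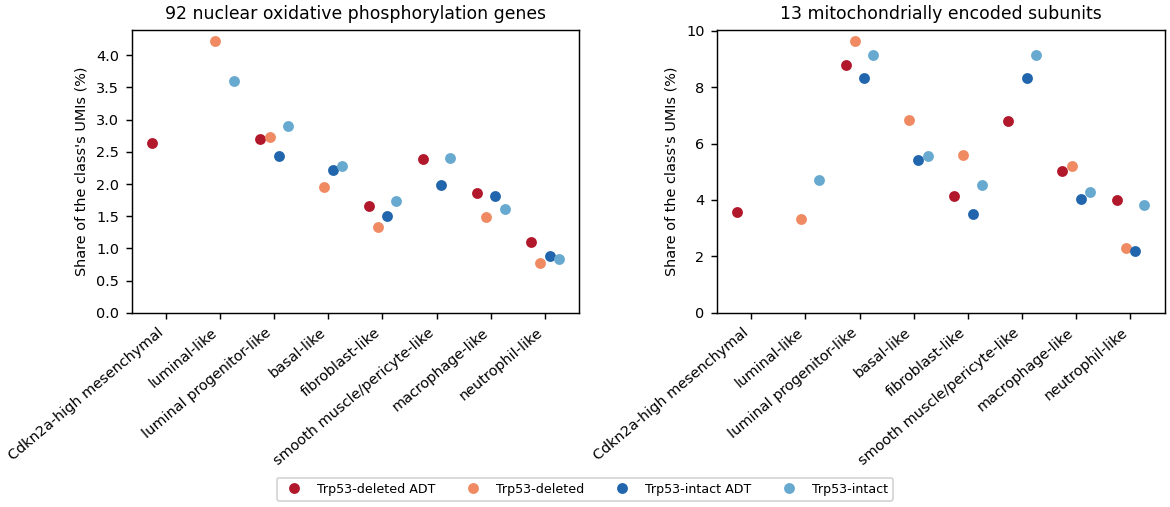
Share of a class's UMIs (%, vertical axis) from the 92 nuclear genes (left) and the 13 mitochondrially encoded subunits (right), by cell class; each point is 1 library with at least 50 cells of the class. Luminal-like cells, which were shallower than luminal progenitor-like cells, stood highest on the left, at 4.22 and 3.60%, and below all luminal progenitor-like points on the right.

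The 13 subunits encoded in mitochondrial DNA did not follow the nuclear genes in every class. Their summed share was 8.75, 9.23, 7.68 and 8.22% in epithelial-like cells of the Trp53-deleted ADT, Trp53-deleted, Trp53-intact ADT and Trp53-intact libraries. It was 4.25, 5.65, 3.65 and 4.93% in stromal-like and 5.03, 5.19, 4.03 and 4.29% in macrophage-like cells of the same 4 libraries. Per nuclear UMI this gave 3.28, 3.46, 3.22 and 2.85 mitochondrially encoded UMIs in epithelial-like cells of these libraries. Luminal-like cells had 0.786 in the Trp53-deleted and 1.31 in the Trp53-intact library, below every value of the joined epithelial-like class. The part of their low depth in this ratio was not tested. Cells with over 20% mitochondrial UMIs had been left out, which bounds these shares, and the part of that limit in the ratio was not tested.

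Gene by gene, 65 of the 90 tested genes were higher in epithelial-like than in stromal-like cells and 5 were lower (edgeR quasi-likelihood test with the library as block, Benjamini-Hochberg adjusted over 15604 genes, threshold 0.05). Over all 15604 genes, 29.7% were called higher and 29.6% lower. The median log2 ratio of the 90 genes was 0.55, against -0.01 over all genes. Against macrophage-like cells 42 were higher and 2 lower, beside 31.5% and 28.3% of all genes, with a median of 0.34 against 0.04. Leaving out the Trp53-deleted library left 43 higher calls over stromal-like and 24 over macrophage-like cells, and leaving out the Trp53-intact library left 18 over macrophage-like cells. The classes were drawn from the counts of the same cells, with 3 of the 92 genes among the 2000 that shaped the clusters; with all 92 left out of clustering, 65 of the 65 higher and 5 of the 5 lower calls over stromal-like cells remained, and 41 of 42 and 2 of 2 over macrophage-like cells.

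Stromal-like cells had 9 genes higher and 30 lower than macrophage-like cells, beside 31.6% and 29.4% of all genes, with a median of -0.23 against 0.04. The counts of calls include genes under 20 UMIs in the lower class, which passed the filter through the class where they are high: Cox4i2 in epithelial-like, Cox6a2 in stromal-like and Cox8b in macrophage-like cells. The split between stromal-like and macrophage-like cells depended on the scaling. With library totals in place of TMM factors it was 17 higher and 18 lower, and the epithelial-like over macrophage-like split was 70 higher and 2 lower; the median of all genes then stood at 0.30 and 0.18 on the log2 scale for epithelial-like over macrophage-like and stromal-like over macrophage-like. Without the Trp53-intact library 18 of the stromal-like calls were lower, and without the Trp53-deleted ADT library 16.

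**Figure D2:**
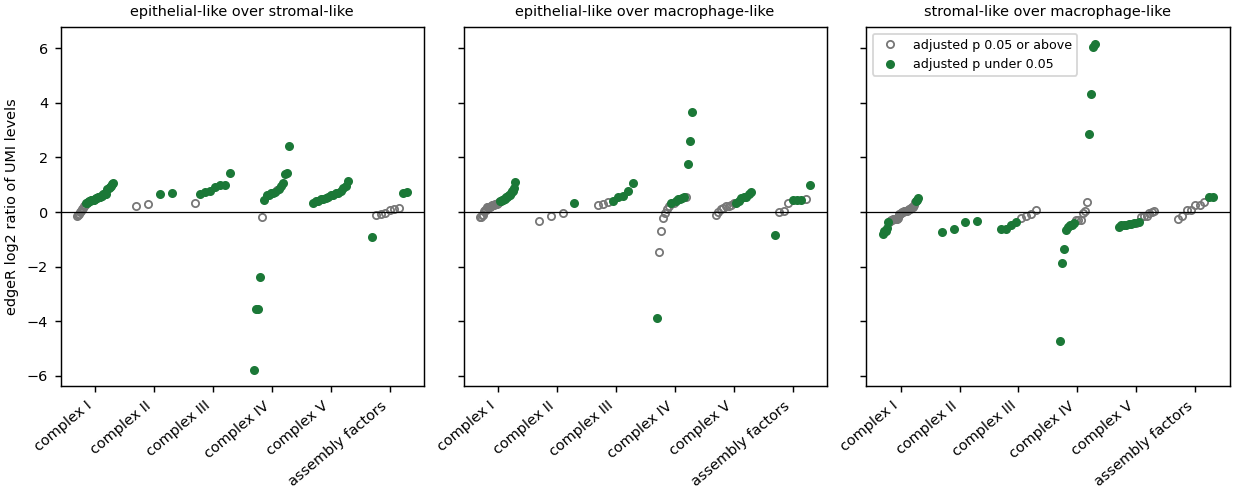
Log2 ratio of each of the 90 tested genes, grouped by complex (horizontal axis), in the 3 comparisons of cell classes; each point is 1 gene, and the legend marks the genes called by edgeR at an adjusted p under 0.05. Complex V had 15 of 15 genes higher in epithelial-like than in stromal-like cells, beside 29.7% of all genes.

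Complex I, the NADH dehydrogenase, had 27 of 36 genes higher and 0 lower in epithelial-like than in stromal-like cells. Of all genes 29.7% were higher and 29.6% lower. Over macrophage-like cells 16 complex I genes were higher and 0 lower, beside 31.5% and 28.3% of all genes. The count of lower complex I genes stayed at 0 in both comparisons at an unadjusted p under 0.05, and the genes DESeq2 called lower were the same 5 and 2 genes as with edgeR. Stromal-like over macrophage-like cells gave 3 higher, Ndufv1, Ndufa11 and Ndufa5, and 6 lower. As shares, both were under the 31.6% and 29.4% of all genes. Ndufv1, the flavin-carrying subunit that takes electrons from NADH, had 73.8, 53.9, 61.2 and 60.0 CPM in stromal-like cells of the Trp53-deleted ADT, Trp53-deleted, Trp53-intact ADT and Trp53-intact libraries. In macrophage-like cells of the same 4 libraries it had 48.0, 38.1, 38.4 and 34.8 CPM. The ranges did not overlap (log2 ratio 0.50, SE 0.11, edgeR adjusted p = 0.00316). Ndufb9, an accessory subunit, was higher in epithelial-like than in stromal-like cells (log2 ratio 0.56, SE 0.13, edgeR adjusted p = 0.00394) and than in macrophage-like cells (0.58, SE 0.13, adjusted p = 0.00294).

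Complex II, the succinate dehydrogenase that also serves the citrate cycle, had 2 of 4 genes higher in epithelial-like than in stromal-like cells. Of all genes 29.7% were higher. Over macrophage-like cells 1 of the 4 was higher, near the 31.5% of all genes. All 4 were lower in stromal-like than in macrophage-like cells, beside 29.4% of all genes. Sdhd, a membrane anchor, had 69.0, 54.5, 49.0 and 50.2 CPM in stromal-like cells of the Trp53-deleted ADT, Trp53-deleted, Trp53-intact ADT and Trp53-intact libraries, and 103, 93.8, 80.0 and 63.7 CPM in macrophage-like cells of the same libraries. It was lower in stromal-like cells of every library, although the highest stromal-like value exceeded the lowest macrophage-like value (log2 ratio -0.75, SE 0.13, edgeR adjusted p = 0.000454). The catalytic pair did not pass over stromal-like cells: Sdha averaged 104 ± 10.8 CPM in epithelial-like and 82.8 ± 15.5 CPM in stromal-like cells (n = 4 libraries each, edgeR adjusted p = 0.139). Sdhb averaged 106 ± 3.29 CPM in epithelial-like and 80.5 ± 14.6 CPM in stromal-like cells (n = 4 each, edgeR adjusted p = 0.123). The calls of Sdha and Sdhc between stromal-like and macrophage-like cells were lost with library totals in place of TMM, and without some libraries.

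Complex III, the cytochrome bc1 complex, had 7 of 8 genes higher in epithelial-like than in stromal-like cells, beside 29.7% of all genes. Over macrophage-like cells 5 were higher, beside 31.5% of all genes. Uqcr10, a small accessory subunit, had 536, 546, 546 and 643 CPM in epithelial-like cells of the Trp53-deleted ADT, Trp53-deleted, Trp53-intact ADT and Trp53-intact libraries. It had 200, 158, 187 and 238 CPM in stromal-like cells and 238, 186, 253 and 230 CPM in macrophage-like cells of the same 4 libraries. Every epithelial-like value was over every other (log2 ratio over stromal-like 1.43, SE 0.13, edgeR adjusted p = 8.91e-06). Uqcrq, another small subunit, averaged 410 ± 61.8 CPM in epithelial-like and 193 ± 54.6 CPM in stromal-like cells (n = 4 each; log2 ratio 1.002, edgeR adjusted p = 0.000522). Uqcrh, the hinge protein, was the subunit not called (log2 ratio 0.34, edgeR adjusted p = 0.0518).

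Complex IV, cytochrome c oxidase, was the complex in which genes moved both ways. Of its 18 tested genes, 12 were higher and 4 lower in epithelial-like than in stromal-like cells, beside 29.7% and 29.6% of all genes. Cox5a, a nuclear subunit found in all tissues, had 539, 480, 382 and 492 CPM in epithelial-like cells of the Trp53-deleted ADT, Trp53-deleted, Trp53-intact ADT and Trp53-intact libraries. It had 189, 110, 174 and 179 CPM in stromal-like cells and 482, 318, 375 and 315 CPM in macrophage-like cells of the same 4 libraries. Epithelial-like values lay above all stromal-like values (log2 ratio 1.44, SE 0.17, edgeR adjusted p = 5.04e-05), as did the macrophage-like values (stromal-like over macrophage-like -1.34, SE 0.17, adjusted p = 7.00e-05). Ndufa4, named as a complex I gene and now placed in complex IV, had 1425, 1050, 1291 and 1025 CPM in epithelial-like cells of these libraries in the same order. It had 459, 366, 351 and 505 CPM in stromal-like and 389, 251, 252 and 294 CPM in macrophage-like cells of the 4 libraries. All epithelial-like values exceeded all others (log2 ratio 1.40, SE 0.17, edgeR adjusted p = 5.51e-05 over stromal-like and 1.77, SE 0.17, adjusted p = 8.48e-06 over macrophage-like cells).

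The 4 complex IV genes lower in epithelial-like than in stromal-like cells were Cox6b2, Cox4i2, Cox8b and Ndufa4l2, each the second form of a pair whose common form was higher in epithelial-like cells. Of these, Cox4i2 was below 20 UMIs in epithelial-like cells. Cox6b2, known as the testis form of the subunit that bridges the monomers of the enzyme dimer, had 1.33, 3.30, 6.05 and 7.66 CPM in epithelial-like cells of the Trp53-deleted ADT, Trp53-deleted, Trp53-intact ADT and Trp53-intact libraries. It had 67.5, 27.0, 62.1 and 68.2 CPM in stromal-like cells and 9.90, 7.23, 3.94 and 5.09 CPM in macrophage-like cells of the same 4 libraries. The stromal-like values lay above all values of the joined epithelial-like and macrophage-like classes (epithelial-like over stromal-like log2 ratio -3.56, SE 0.43, edgeR adjusted p = 5.13e-05; stromal-like over macrophage-like 2.86, SE 0.43, adjusted p = 0.000199). Luminal-like cells, which are a small part of the epithelial-like UMIs, had 14.1 CPM in the Trp53-deleted and 36.9 CPM in the Trp53-intact library. The Trp53-intact luminal-like value was over the stromal-like value of the Trp53-deleted library and under those of the other 3. Cox6b1, the common partner, whose promoter is shown above beside that of Cox6b2, averaged 703 ± 79.9 CPM in epithelial-like, 309 ± 51.3 CPM in stromal-like and 405 ± 33.8 CPM in macrophage-like cells (n = 4 each; over stromal-like cells log2 ratio 1.08, edgeR adjusted p = 9.22e-05).

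Ndufa4l2, a hypoxia-inducible relative of Ndufa4, and Cox4i2, the oxygen-responsive lung form of Cox4i1, were concentrated in smooth muscle/pericyte-like cells. Ndufa4l2 had 913, 319 and 485 CPM there in the Trp53-deleted ADT, Trp53-intact ADT and Trp53-intact libraries (the Trp53-deleted library held 31 such cells and is not given). In fibroblast-like cells of the Trp53-deleted ADT, Trp53-deleted, Trp53-intact ADT and Trp53-intact libraries it had 18.0, 1.69, 2.07 and 12.9 CPM. Cox4i2 had 474, 188 and 166 CPM in the smooth muscle/pericyte-like cells of those 3 libraries and 4.12, 1.93, 1.84 and 1.44 CPM in fibroblast-like cells of all 4. Both genes had higher values in smooth muscle/pericyte-like than in fibroblast-like cells in every library with a value, as a description of clusters drawn from the same counts. Ndufa4l2 was itself among the genes that lead the smooth muscle/pericyte-like cluster, so that its level there describes the cluster. In the joined stromal-like class, which includes that cluster, Ndufa4l2 was called higher than in epithelial-like cells (edgeR adjusted p = 0.00192). Cox4i2 had 13 UMIs in epithelial-like and 469 in stromal-like cells, so that it entered the comparison through the class in which it is high, and no p is given for it. The Ndufa4l2 call was lost with fibroblast-like cells alone (log2 ratio -1.69). Epithelial-like levels of Cox4i2 and macrophage-like levels of Ndufa4l2 were at or near 0, so that no fitted ratio is given.

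In these smooth muscle/pericyte-like cells Ndufa4, the common form, had 146, 363 and 279 CPM in the Trp53-deleted ADT, Trp53-intact ADT and Trp53-intact libraries. Ndufa4 was thus lowest in the library in which Ndufa4l2 was highest. Levels of different genes are not compared, since UMI counts from 3′ ends depend on the gene. Cox4i1 had 1027, 769 and 732 CPM there in the same 3 libraries, against 1075, 878 and 1119 CPM in epithelial-like cells of these libraries. Cox7a1, the heart and muscle form of Cox7a, had 5.97, 21.8 and 17.8 CPM in these smooth muscle/pericyte-like cells. In epithelial-like cells Cox7a1 averaged 7.27 ± 2.80 CPM and in stromal-like cells 1.19 ± 0.512 CPM (n = 4 each; log2 ratio 2.42, SE 0.29, edgeR adjusted p = 4.65e-05). Its partner Cox7a2 was higher in epithelial-like than in stromal-like cells (log2 ratio 0.71, edgeR adjusted p = 0.00198), and Cox7a2l, a factor for joining complexes III and IV, was not called (-0.18, adjusted p = 0.260).

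Cox6a2, the heart and muscle form of Cox6a1, had 4.09, 3.94, 8.57 and 2.67 CPM in macrophage-like cells from the Trp53-deleted ADT, Trp53-deleted, Trp53-intact ADT and Trp53-intact libraries. Its average in epithelial-like cells was 0.404 ± 0.610 CPM (n = 4). Of its 26 UMIs in these epithelial-like cells, 19 came from 1 luminal progenitor-like cell of the Trp53-intact ADT library, so that no test is given. Cox8b, the muscle form of Cox8a, had 1.12, 2.94, 2.87 and 3.44 CPM in stromal-like cells of the 4 libraries in the same order. In macrophage-like cells Cox8b had at most 0.171 CPM. It had 1 UMI there in all and was not measured, so that no test is given for it either. These are low levels, and free RNA from other cells was not tested. Cox8a itself averaged 1103 ± 122 CPM in epithelial-like, 528 ± 69.7 CPM in stromal-like and 668 ± 63.7 CPM in macrophage-like cells (n = 4 each), higher in epithelial-like cells in both comparisons (edgeR adjusted p = 0.000161 and 0.0126).

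**Figure D3:**
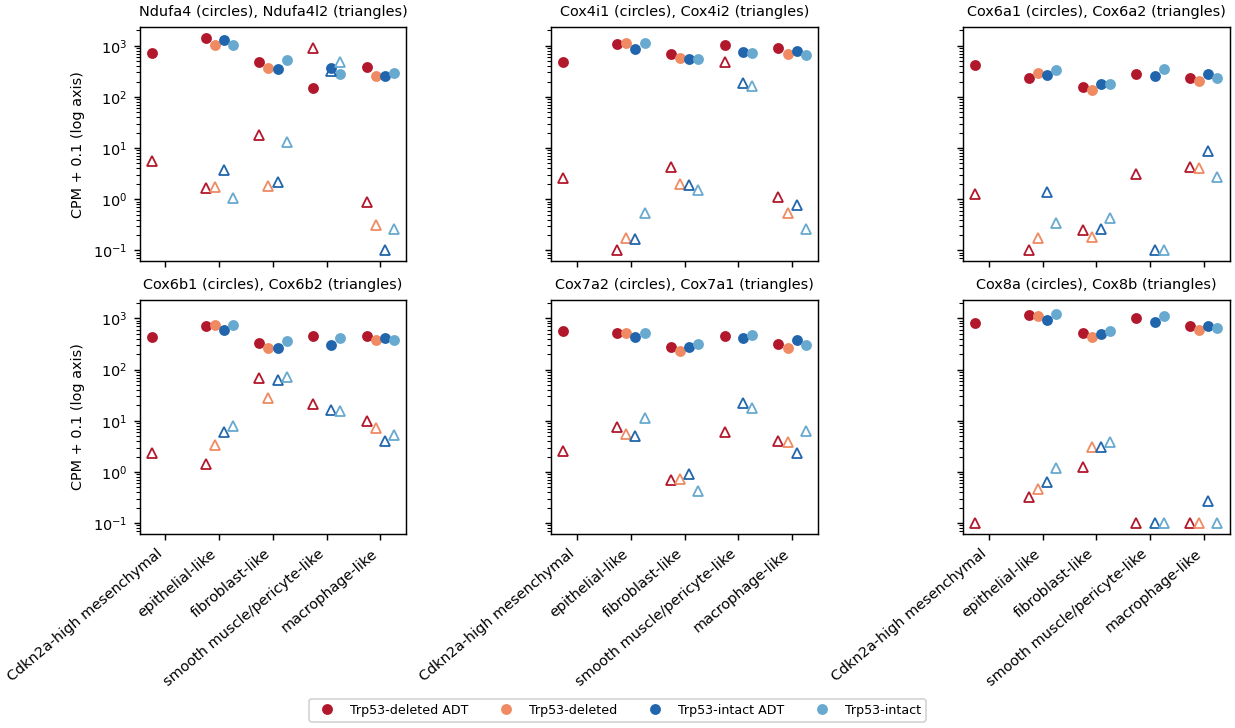
CPM + 0.1 (log axis) of the common form (filled circles) and the second form (open triangles) of 6 subunit pairs, by cell class; each point is 1 library. Ndufa4l2 and Cox4i2 reached 913 and 474 CPM in smooth muscle/pericyte-like cells, and Cox6b2 had 27.2 to 73.1 CPM in fibroblast-like cells.

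Complex V, the ATP synthase, was higher in epithelial-like than in stromal-like cells for 15 of 15 genes, beside 29.7% of all genes. Over macrophage-like cells 7 genes of complex V were higher, beside 31.5% of all genes. Atp5e, a subunit of its central stalk, was called over stromal-like cells (log2 ratio 0.48, SE 0.15, edgeR adjusted p = 0.0205), with epithelial-like and stromal-like ranges that overlapped. Atp5h, of the peripheral stalk, was also called (0.39, SE 0.12, adjusted p = 0.0214). Both calls were lost without at least 1 of the libraries and without the library block. The inhibitor Atpif1, which lies outside the symbol rule, had 697, 764, 650 and 709 CPM in epithelial-like cells of the Trp53-deleted ADT, Trp53-deleted, Trp53-intact ADT and Trp53-intact libraries. It had 264, 184, 171 and 238 CPM in stromal-like and 356, 363, 311 and 371 CPM in macrophage-like cells of the same 4 libraries, and the epithelial-like values lay above all others.

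Of the 9 assembly factors, 2 were higher and 1 lower in epithelial-like than in stromal-like cells, beside 29.7% and 29.6% of all genes. Over macrophage-like cells 4 were higher and 1 lower, beside 31.5% and 28.3% of all genes. Atp5s of ATP synthase was 1 of the higher genes in both comparisons (log2 ratio 0.73, edgeR adjusted p = 0.00856 and 1.01, adjusted p = 0.00151), and the others were Ndufaf genes of complex I. Ndufaf6 had 4.66, 4.09, 5.92 and 3.97 CPM in epithelial-like cells of the Trp53-deleted ADT, Trp53-deleted, Trp53-intact ADT and Trp53-intact libraries. It had 9.12, 6.12, 12.2 and 6.27 CPM in stromal-like and 7.75, 7.45, 6.68 and 5.93 CPM in macrophage-like cells of the same 4 libraries. It was the member of this group lower in epithelial-like cells in both comparisons (log2 ratio -0.93, edgeR adjusted p = 0.00254 and -0.85, adjusted p = 0.00449). Of 47 tested assembly factors outside the symbol rule, 16 were higher and 4 lower in epithelial-like than in stromal-like cells. The count of 16 is near the 29.7% of all genes. Over macrophage-like cells 15 were higher, near the 31.5% of all genes, and 5 lower. In stromal-like over macrophage-like cells 3 were higher and 17 lower, beside 31.6% and 29.4% of all genes. Ndufaf2 and Ndufaf4 were higher in stromal-like than in macrophage-like cells (0.53, edgeR adjusted p = 0.00455 and 0.54, adjusted p = 0.0197).

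Lists of genes around the respiratory chain are read against the 29.7% higher and 29.6% lower of all genes over stromal-like, and 31.5% and 28.3% over macrophage-like cells. Of 13 mitochondrially encoded subunits, 9 were higher and 0 lower in epithelial-like than in stromal-like cells, with 9 higher also at an unadjusted p under 0.05, and 11 were higher than in macrophage-like cells. Among 18 genes of the citrate cycle and pyruvate dehydrogenase, 10 were higher and 0 lower over stromal-like cells (edgeR; 11 higher and 0 lower at an unadjusted p under 0.05). Among 17 glycolysis genes, 14 were higher and 2 lower, the muscle and platelet phosphofructokinases Pfkm and Pfkp. Of 77 mitochondrial ribosome genes 39 were higher and 3 lower. Of 12 regulators of mitochondrial biogenesis 4 were higher, a share near that of all genes, and 2 lower. Ppargc1a, the coactivator PGC-1α, averaged 26.8 CPM in epithelial-like and 0.651 CPM in stromal-like cells (log2 ratio 5.18, SE 0.56, edgeR adjusted p = 2.31e-05), and Esrra, a nuclear receptor it works with, 45.2 and 13.5 CPM in epithelial-like and stromal-like cells (1.63, adjusted p = 1.48e-06). The 2 lower genes were Gabpa, an ETS-family factor (-0.75, edgeR adjusted p = 0.000238), and Pprc1 (-1.05, adjusted p = 0.000503). Pprc1 averaged 12.2 CPM in epithelial-like and 23.9 CPM in stromal-like cells. Of 10 carriers 5 were higher and 1 lower. The lower gene was the heart-type ADP/ATP carrier Slc25a4, with 154 CPM in epithelial-like and 430 CPM in stromal-like cells (-1.59, edgeR adjusted p = 3.86e-06). Slc25a5, its widely made relative, was higher (1.25, adjusted p = 0.000621).

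Of 19 dissociation stress genes, 2 were higher and 9 lower in epithelial-like than in stromal-like cells, beside 29.7% and 29.6% of all genes. Over macrophage-like cells 4 were higher and 7 lower, beside 31.5% and 28.3% of all genes. Their part in the differences of respiratory genes was not tested.

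The Cdkn2a-high mesenchymal cells came almost all from the Trp53-deleted ADT library, with 636 cells there, 1 in the Trp53-deleted library and 0 in the others. They were chosen for Cdkn2a, which had 1845 CPM, together with mesenchymal genes, and their leading genes were Ptn, Crabp1, Postn, Cthrc1, Cdkn2a and Col1a1. Trp53 had 20.2 CPM in them, near the 18.0 CPM of epithelial-like cells and under the 45.9 CPM of stromal-like cells of that library. Epcam had 2.86 and Ptprc 3.44 CPM. Their median depth was 81982.5 UMIs a cell, against 16079 in epithelial-like cells of the same library, and their summed cycling genes reached 716 CPM, against 69 CPM in epithelial-like, 74 CPM in stromal-like and 422 CPM in macrophage-like cells. Cell class and library cannot be told apart here, and the part of depth and cycling in the results below was not tested.

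The 92 genes took 2.64% of the UMIs of Cdkn2a-high mesenchymal cells, close to the 2.66% of epithelial-like and above the 1.69% of stromal-like and 1.86% of macrophage-like cells of the same library. In UMIs per cell this was 2430, against 655 in epithelial-like cells. Fewer molecules per cell and a shallower capture cannot be told apart in such counts. Mitochondrially encoded subunits took 3.57% in Cdkn2a-high mesenchymal cells, against 8.75% in epithelial-like, 4.25% in stromal-like and 5.03% in macrophage-like cells. Per nuclear UMI this was 1.35, under the 3.28 of epithelial-like, 2.51 of stromal-like and 2.71 of macrophage-like cells.

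Within the Trp53-deleted ADT library, 21 of 89 measured genes were at least 1.5-fold higher and 11 at least 1.5-fold lower in Cdkn2a-high mesenchymal than in epithelial-like cells, on log2(CPM + 5), which understates the change of low genes. Of all genes measured 23.5% were higher and 22.6% lower, so that the count of higher genes was at the background and that of lower genes under it. Over stromal-like cells 46 were higher and 4 lower (20.5% and 18.8% of all genes), and over macrophage-like cells 41 higher and 2 lower (30.3% and 16.8%). The medians were 0.07, 0.64 and 0.54 for the 3 comparisons, beside 0.05, 0.02 and 0.17 over all genes. By complex, 19 complex I, 1 complex II, 5 complex III, 6 complex IV and 9 complex V genes and 6 assembly factors were higher than in stromal-like cells, and the 4 lower genes were all of complex IV.

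The assembly factors of complex I had some of the highest ratios. Ndufaf2 had 97.4 CPM in Cdkn2a-high mesenchymal cells, against 33.5 CPM in epithelial-like, 36.1 CPM in stromal-like and 20.5 CPM in macrophage-like cells of that library (ratio over epithelial-like 2.90, 95% counting interval 2.47 to 3.44). Ndufaf6 had 21.3 CPM there, against 4.66 CPM in epithelial-like cells (4.57, 2.98 to 7.41). Ndufaf4 had 63.3 CPM, against 33.3 CPM in epithelial-like and 16.7 CPM in macrophage-like cells. Ndufaf3 stood apart, with 13.6 CPM in Cdkn2a-high mesenchymal and 34.7 CPM in epithelial-like cells (0.392, 0.330 to 0.469). With Atp5s counted in, 5 of the 9 factors were at least 1.5-fold higher and 1 lower than in epithelial-like cells. Of all genes 23.5% were higher and 22.6% lower. Over macrophage-like cells 8 factors were higher, beside 30.3% of all genes.

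Among subunits, Atp5f1 of the peripheral stalk of complex V had 761 CPM in Cdkn2a-high mesenchymal and 388 CPM in epithelial-like cells (ratio 1.96, interval 1.87 to 2.06), and Ndufc1 of complex I 422 and 227 CPM in the same 2 classes (1.86, 1.75 to 1.99). Ndufb9 had 685 CPM, against 401 CPM in epithelial-like, 244 CPM in stromal-like and 214 CPM in macrophage-like cells. Uqcrq had 687 CPM in Cdkn2a-high mesenchymal and 225 CPM in stromal-like cells (3.05, 2.90 to 3.21), and Atp5g1, a c-ring subunit of complex V, 745 and 274 CPM in these classes (2.72, 2.60 to 2.84). These genes exceeded all 3 other classes of the library.

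Cox4i1, the common form of a complex IV subunit, went the other way, with 488 CPM in Cdkn2a-high mesenchymal cells, against 1075 CPM in epithelial-like, 702 CPM in stromal-like and 921 CPM in macrophage-like cells. Its ratio over epithelial-like cells was 0.454 (0.440 to 0.468), while Cox4i2 had 2.51 CPM there. Ndufa4 had 718 CPM, under the 1425 CPM of epithelial-like and over the 459 CPM of stromal-like cells. Cox6b2 had 2.21 CPM, against 67.5 CPM in stromal-like cells (0.0327, 0.0267 to 0.0398), and Cox7a2l 261 and 436 CPM in these classes (0.599, 0.576 to 0.623). Cox6c and Cox6a1 were higher than in epithelial-like cells, with ratios of 1.53 and 1.75, so that complex IV subunits lay on both sides of equality.

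**Figure D4:**
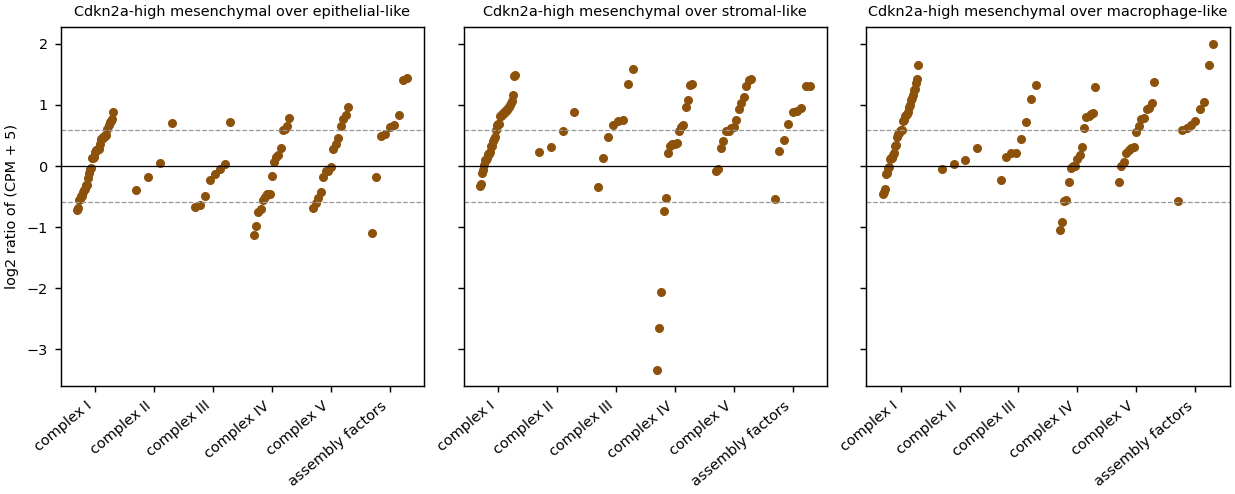
Log2 ratio of CPM + 5 in Cdkn2a-high mesenchymal cells over epithelial-like, stromal-like and macrophage-like cells, all within the Trp53-deleted ADT library, by complex; each point is 1 gene, and dashed lines mark 1.5-fold. Assembly factors and complex I lay mostly above 0, and Cox4i1 was the lowest point over epithelial-like cells, at -1.13.

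Beside these genes, 46 of 78 mitochondrial ribosome genes were at least 1.5-fold higher and 0 lower in Cdkn2a-high mesenchymal than in epithelial-like cells, 64 were higher than in stromal-like and 59 than in macrophage-like cells. Mrps17 had 196 CPM in Cdkn2a-high mesenchymal and 60.6 CPM in epithelial-like cells. The 13 mitochondrially encoded subunits were all at least 1.5-fold lower than in epithelial-like cells, with 3 lower than in stromal-like and 4 than in macrophage-like cells. Ppargc1a had 0.821 CPM in Cdkn2a-high mesenchymal and 36.2 CPM in epithelial-like cells. Among 17 glycolysis genes 4 were higher, at the 23.5% of all genes, and 7 lower (22.6% of all genes) than in epithelial-like cells. Over stromal-like cells 10 were higher and 2 lower, beside 20.5% and 18.8%, with Eno1 at 420 CPM in Cdkn2a-high mesenchymal and 84.5 CPM in stromal-like cells. Of 19 dissociation stress genes, 14 were lower than in epithelial-like, 16 than in stromal-like and 13 than in macrophage-like cells, and their part was not tested.

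Between libraries, differences are given as ratios with counting intervals and no test, since each group is 1 library. In epithelial-like cells 0 of 87 measured genes were at least 1.5-fold higher or lower in the Trp53-deleted ADT than in the Trp53-deleted library, beside 5.40% and 7.73% of all genes. In the Trp53-intact ADT library 0 were higher and 5 of 89 lower than in the Trp53-intact library (5.72% and 5.07%). The Trp53-deleted ADT library had 0 higher and 2 lower than the Trp53-intact ADT library (3.53% and 3.65%), and the Trp53-deleted library 0 higher and 4 lower than the Trp53-intact library (3.45% and 2.83%). Each library enters 2 of these comparisons, so that they are not independent. The medians of the measured genes were -0.02, -0.20, 0.14 and -0.05 in these 4 comparisons, against -0.09, 0.05, -0.02 and 0.11 over all genes.

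The largest epithelial-like difference under ADT was that of Ndufv3, an accessory subunit of complex I, with 138, 170, 124 and 249 CPM in the Trp53-deleted ADT, Trp53-deleted, Trp53-intact ADT and Trp53-intact libraries. The Trp53-intact ADT to Trp53-intact ratio was 0.496 (95% counting interval 0.471 to 0.523), and the Trp53-deleted ADT to Trp53-deleted ratio 0.813 (0.743 to 0.888). Ndufa1, a small X-linked subunit, had 231, 325, 262 and 452 CPM in the same 4 libraries, and Ndufc2 280, 421, 245 and 396 CPM. Both were lower in the ADT library of either genotype. Ndufa4 went the other way, with its 2 higher values in the ADT libraries (1425 and 1291 CPM in the Trp53-deleted ADT and Trp53-intact ADT libraries). Of 19 dissociation stress genes, 13 were higher and 0 lower with ADT in these cells of Trp53-deleted mice, and 11 higher and 2 lower in Trp53-intact mice. The share of luminal progenitor-like cells was also higher in the ADT library of each genotype, and the part of either in these results was not tested.

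In stromal-like cells, ADT went with 10 of 88 genes higher and 0 lower in Trp53-deleted mice, beside 8.90% and 9.97% of all genes, and with 1 of 89 higher and 8 lower in Trp53-intact mice, beside 6.23% and 6.88%. The medians were 0.31 and -0.20, against -0.05 and 0.04 over all genes. The Trp53-deleted library without ADT had 0 of 89 genes higher and 22 lower than the Trp53-intact library (9.26% and 6.43% of all genes, median -0.35 against 0.11), whereas the Trp53-deleted ADT library had 2 higher and 1 lower than the Trp53-intact ADT library (8.21% and 6.43%). Atp5g1 had 274, 148, 279 and 277 CPM in the Trp53-deleted ADT, Trp53-deleted, Trp53-intact ADT and Trp53-intact libraries, and Uqcrq 225, 123, 179 and 246 CPM. The Trp53-deleted library was the lowest of the 4 for both genes. It also had the lowest summed share, 1.34%, and 25.7% of its barcodes had been left out for their mitochondrial share, against 8.39 to 13.9% in the others.

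In macrophage-like cells 5 of 89 genes were higher and 0 lower with ADT in Trp53-deleted mice (4.53% and 14.5% of all genes, median 0.27 against -0.13), and 2 of 87 higher and 1 lower in Trp53-intact mice (5.82% and 5.55%). The Trp53-deleted library had 0 higher and 1 lower than the Trp53-intact library (7.95% and 3.56%, median -0.03 against 0.15), and the Trp53-deleted ADT library 2 higher and 1 lower than the Trp53-intact ADT library (2.88% and 6.62%). Atp5g1 had 283, 165, 250 and 183 CPM in the Trp53-deleted ADT, Trp53-deleted, Trp53-intact ADT and Trp53-intact libraries. Both ADT libraries stood above both libraries without ADT. Of 17 glycolysis genes, 0 were higher and 11 lower in the Trp53-deleted ADT than in the Trp53-intact ADT library.

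Atp5k, the e subunit of complex V, was lower in Trp53-deleted than in Trp53-intact libraries in all 3 classes, with and without ADT. In epithelial-like cells it had 231, 300, 367 and 546 CPM in the Trp53-deleted ADT, Trp53-deleted, Trp53-intact ADT and Trp53-intact libraries. It had 158, 112, 233 and 293 CPM in stromal-like and 207, 174, 341 and 296 CPM in macrophage-like cells of the same 4 libraries. Neither Trp53-deleted value reached a Trp53-intact value in any of the 3 classes. Trp53-deleted over Trp53-intact ratios without ADT were 0.549 in epithelial-like, 0.384 in stromal-like and 0.588 in macrophage-like cells, and with ADT 0.629, 0.677 and 0.607 in these classes (the widest counting interval ran from 0.631 to 0.725). In Cdkn2a-high mesenchymal cells of the Trp53-deleted ADT library Atp5k had 400 CPM. With 1 library a group, a difference of library or mouse cannot be told apart from genotype.

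Ndufa3, an accessory subunit of complex I, had 177, 195, 255 and 329 CPM in epithelial-like cells of the Trp53-deleted ADT, Trp53-deleted, Trp53-intact ADT and Trp53-intact libraries. It had 110, 95.1, 143 and 220 CPM in stromal-like and 155, 114, 192 and 171 CPM in macrophage-like cells of the same libraries. Both Trp53-deleted values lay under both Trp53-intact values in each class. Sdha, the flavoprotein of complex II, went the other way without ADT, with 103 CPM in stromal-like cells of the Trp53-deleted and 70.9 CPM of the Trp53-intact library (ratio 1.45, counting interval 1.32 to 1.59) and 117 and 81.9 CPM in macrophage-like cells of the Trp53-deleted and Trp53-intact libraries (1.43, 1.28 to 1.59). Neither passed 1.5-fold. Ndufs1, the largest subunit of complex I, was also highest in the Trp53-deleted library in all 3 classes, with 43.2 CPM in epithelial-like, 39.5 CPM in stromal-like and 38.8 CPM in macrophage-like cells.

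**Figure D5:**
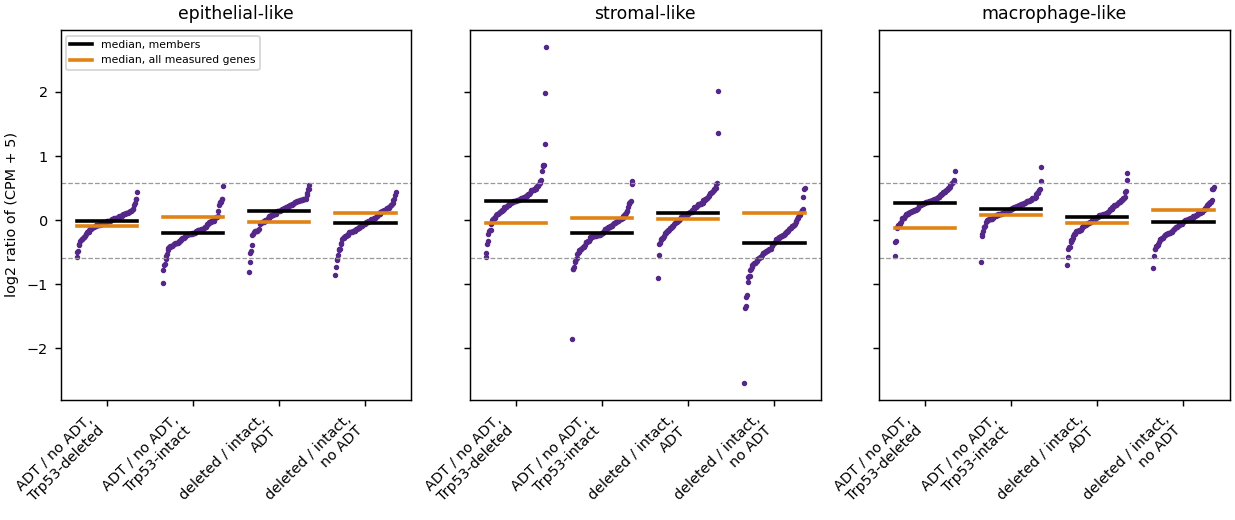
Log2 ratio of CPM + 5 between pairs of libraries (4 comparisons) in epithelial-like, stromal-like and macrophage-like cells; each point is 1 gene, bars mark the medians of these genes (black) and of all measured genes (orange), and dashed lines mark 1.5-fold. Most genes lay within 1.5-fold, and Ndufa4l2 in stromal-like cells ranged from -2.54 to 2.70.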

How the data were processed

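Prostate cells of 4 mouse libraries were measured, 1 per group. The deposited file holds UMI counts per gene and barcode that the authors made and did not normalise; the submitters' processing notes name Cell Ranger 2.1.1 and the mm10 build, whereas the matrix header gives version 3.1.0. The library of each of the 36326 barcodes came from the submitters' suffix table. The part of the genotype that all groups share is not reported here.

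Cells with at least 500 UMIs, 200 genes and at most 20% mitochondrial UMIs were kept. Scrublet's automatic threshold marked 0 or 1 barcode a library, and instead the barcodes with the highest doublet scores were removed, in a share that grows with the library's barcode number (356 to 816 cells). Leiden clustering (scanpy 1.11.5, leidenalg 0.10.2, Python 3.11.15, 2000 variable genes, 40 components, 20 neighbours, resolution 1) was followed by naming from marker lists; names are "-like" since they rest on RNA alone. After the clusters were seen, rules were added that give no name to clusters led by markers of unlisted types and keep shallow ones out of the Cdkn2a-high class.

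For each class in each library the UMIs of a gene were added up and given as CPM. Classes were compared with edgeR 4.0.16 (R 4.3.3; TMM, filterByExpr, quasi-likelihood test, library as block, 12 sums), tested on simulated data first. The block is the library itself, since the 3 classes of a library come from the same sample. With that block, these p-values set a class difference against its variation between 4 libraries of different groups. Pairs of libraries were compared by ratio, with 95% conditional binomial intervals and calls at 1.5-fold on log2(CPM + 5). Reads of near-identical gene copies could be split by the counting, which was not tested. Alternatives included DESeq2 1.42.0, other scalings and filters, and each library left out; library totals without TMM were added after seeing the data.

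Members and gene lists were chosen with earlier results of these data known. The genes named were fixed by rule: the isoform pairs, Atpif1 and Sdha to Sdhd; the 2 genes with most UMIs per complex; in each comparison of classes the 3 called genes with the largest log2 ratio each way and every call against the sign of the median; between libraries, and for the Cdkn2a-high cells, the 4 with the largest ratio each way among those with at least 100 UMIs; and up to 2 genes each way of every other list. A gene that met the rule in 1 comparison is at times given in another as well, some genes that met it are not described, and Cox7b2 and Cox8c are named outside it, as not measured.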

Additional observations from a re-analysis of the deposited data

Results flagged for a closer look

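Ndufa4l2 and Cox4i2 differed in opposite directions between pairs of stromal-like libraries. On the log2(CPM + 5) scale, ADT over no ADT was 2.70 in Trp53-deleted and -1.85 in Trp53-intact mice for Ndufa4l2, and 1.98 in Trp53-deleted and -0.76 in Trp53-intact mice for Cox4i2. Trp53-deleted over Trp53-intact was 2.02 with ADT and -2.54 without ADT for Ndufa4l2, and 1.36 with ADT and -1.37 without ADT for Cox4i2. These differences were not tested, since each group is 1 library. Smooth muscle/pericyte-like cells, which had higher levels of both genes than fibroblast-like cells in the 3 libraries with a value, gave 4.70% of stromal-like UMIs in the Trp53-deleted ADT, 1.02% in the Trp53-deleted, 2.84% in the Trp53-intact ADT and 8.51% in the Trp53-intact library, and the part of this share in the result was not tested. Within fibroblast-like cells alone Ndufa4l2 had 18.0, 1.69, 2.07 and 12.9 CPM in the same 4 libraries.

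Atp5e in stromal-like cells also differed in opposite directions with ADT, by 0.59 in Trp53-deleted and -0.65 in Trp53-intact mice, and this difference was not tested either.

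Cox6a2 reached 926 CPM in an unnamed cluster of 37 cells outside the compared classes (295 UMIs, in 33 of the cells), where 3 UMIs correspond to 9.42 CPM. It was among the genes that lead this cluster, after Siglech, so that the level describes the cluster and is no test.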

How the results depend on the processing

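No gene called between classes was called in the opposite direction under any alternative run. The sign of the ratio changed for at most 10 of the tested genes, called or not, in a comparison. The pairing of classes by library was part of the design; with no replicate block, 25 genes instead of 42 were higher in epithelial-like than in macrophage-like cells. Library totals without TMM gave 70 higher there and 18 lower in stromal-like than in macrophage-like cells. With each library left out in turn, 43 to 56 genes were higher in epithelial-like than in stromal-like cells, 18 to 47 higher than in macrophage-like cells, and 16 to 20 lower in stromal-like than in macrophage-like cells; fewer sums entered these fits. DESeq2 gave 64, 46 and 31 for these counts. Alternatives for counts between libraries included subtracting neutrophil-like CPM, as a stand-in for free RNA, and the mean of per-cell CPM. For epithelial-like cells, genes lower with ADT in Trp53-intact mice numbered 21 with subtraction and 45 with per-cell means; in Trp53-deleted mice 21 with subtraction, 2 with a pseudocount of 1 CPM, and 1 without mitochondrial genes in the total, with luminal progenitor-like cells alone, with members left out of clustering, at resolution 2 or at most 10% mitochondrial UMIs. Lower in Trp53-deleted than in Trp53-intact cells without ADT were 8 with per-cell means and 2 with luminal progenitor-like cells alone, and higher in Trp53-deleted than in Trp53-intact cells with ADT were 6 with subtraction and 7 with per-cell means. For stromal-like cells, genes lower with ADT in Trp53-intact mice numbered 29 with subtraction and 23 with per-cell means. Genes higher with ADT in Trp53-deleted mice numbered 17 with per-cell means. Between the libraries without ADT, 34 genes were lower in the Trp53-deleted one when centred on the median of all genes. This count was 44 with subtraction and 41 with per-cell means. Between the ADT libraries, 12 genes were higher in the Trp53-deleted one with subtraction. For macrophage-like cells, genes higher with ADT in Trp53-intact mice numbered 1 with a minimum of 100 UMIs or centring and 16 with subtraction; in Trp53-deleted mice 10 without ribosomal protein genes in the total, 14 with centring, 19 with per-cell means, 28 at resolution 2, and 2 with members left out of clustering or at most 10% mitochondrial UMIs. Lower in Trp53-deleted than in Trp53-intact cells without ADT were 4 with centring, 5 with subtraction, and 2 with a pseudocount of 1 CPM, without ribosomal protein genes, with per-cell means or at resolution 2; higher in Trp53-deleted than in Trp53-intact cells with ADT were 4 with that pseudocount, 6 at resolution 2, and 0 with per-cell means or members left out of clustering. Genes lower in Cdkn2a-high mesenchymal than in epithelial-like cells numbered 6 with per-cell means. With subtraction the median ratio of the members, Trp53-deleted ADT over Trp53-intact ADT library, was -0.0019 in epithelial-like and -0.16 in stromal-like cells. For ADT in stromal-like cells of Trp53-deleted mice it was 0. Each was positive before. The cause was not tested. Depth limits the low isoforms.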

Other observations

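Among the 13 mitochondrially encoded subunits, mt-Atp8, a small ATP synthase subunit, was lower in Trp53-deleted than in Trp53-intact libraries in all 3 classes. In epithelial-like cells it had 154 CPM in the Trp53-deleted ADT and 475 CPM in the Trp53-intact ADT library, and 132 CPM in the Trp53-deleted and 459 CPM in the Trp53-intact library. In stromal-like cells the values were 111 CPM in the Trp53-deleted ADT and 306 CPM in the Trp53-intact ADT library, and 135 CPM in the Trp53-deleted and 309 CPM in the Trp53-intact library. In macrophage-like cells they were 110 CPM in the Trp53-deleted ADT and 308 CPM in the Trp53-intact ADT library, and 84.2 CPM in the Trp53-deleted and 351 CPM in the Trp53-intact library. It was not the only one: at least 1.5-fold lower in Trp53-deleted libraries were 3 of the 13 subunits in epithelial-like, 2 in stromal-like and 3 in macrophage-like cells with ADT, and 4, 3 and 3 in these classes without ADT. Of all genes measured, 3.65, 6.43 and 6.62% were lower in these classes with ADT, and 2.83, 6.43 and 3.56% without ADT. Among the lower subunits, mt-Nd3 had 1046 CPM in the Trp53-deleted ADT and 2341 CPM in the Trp53-intact ADT library in epithelial-like cells, and mt-Nd4l 267 CPM in the Trp53-deleted and 622 CPM in the Trp53-intact library. The median log2 ratio of the 13 subunits was between 0.02 and 0.25. With 1 library a group, the difference was not tested.

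Of 19 dissociation stress genes, 5 were at least 1.5-fold higher and 2 lower with ADT in stromal-like cells of Trp53-deleted mice. In the same cells 12 of 77 mitochondrial ribosome genes were higher and 0 lower. Of all genes measured there, 8.9% were higher and 9.97% lower, so that the count of lower stress genes was near the background.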
